A study of Rattus norvegicus with 24 samples.

Results

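The comparison described here set the livers of rats given the highest dose of TCDD, 10 µg/kg, against those given the next lower dose, 3 µg/kg. It compared 6 of the 24 libraries of the series, 3 per dose, chosen by the dose in the labels. The low-count filter and the spread between replicates were taken over all 24 libraries. All were female Sprague-Dawley rats, an outbred stock, labelled 57 days of age. Gavage with sesame oil, the vehicle, or with TCDD was repeated every 4 days until the livers were collected on day 28. Both groups compared were therefore treated, and neither was a control. The other 18 libraries came from vehicle and from 5 lower doses (1 µg/kg down to 0.01 µg/kg), with 3 libraries each.

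TCDD (2,3,7,8-tetrachlorodibenzo-p-dioxin) is a persistent ligand of the aryl hydrocarbon receptor. The bound receptor enters the nucleus, pairs with ARNT and switches on genes of drug metabolism, of which the CYP1 enzymes are the best known. In rodent liver the compound is also known for fat accumulation, wasting and altered lipid metabolism. The title of the series places the work in polyunsaturated fatty acid and eicosanoid metabolism. The step from 3 to 10 µg/kg asks which genes differ between the highest doses.

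Each count table lists Ensembl gene IDs without gene names. The RefSeq gene table used here gave an Ensembl ID in 0 of its 47357 rows, so none could be paired (0 of 26404). Which functions the genes serve, and whether liver markers fit the labelled tissue, was not analysed here. Genes are described as groups by direction, level and dose pattern, and 4 IDs are printed, the 2 largest changes each way under the rule given with the methods. Counts assigned to genes ranged from 12351063 to 15804887 in the 6 libraries. Replicates within each group differed by more than sampling noise, at a chi-square per degree of freedom from 22.0 to 45.6. No label gives a batch and the sample titles run with the dose, which means that a processing batch, if there was one, cannot be told apart from dose.

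Between 3 and 10 µg/kg, 307 genes were higher and 354 were lower at the top dose (edgeR quasi-likelihood test, Benjamini-Hochberg adjusted p below 0.05). That fit held all 24 libraries, and a fit of only the groups compared called 279 genes, as described below. The 307 and 354 genes were 2.46% and 2.83% of the 12496 genes tested, 5.29% in all. The higher genes changed more, with a median log2 fold change of 1.21 (median SE 0.279), or 2.31-fold. The lower genes had a median of -0.77 (median SE 0.180), or 1.71-fold. That difference did not hold at every level of abundance, as described below. The median over all genes tested was -0.0063. In whole liver, fewer cells of a type and less RNA per cell cannot be told apart for any of these genes.

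Fitted changes reached 2-fold or more in 198 of the 307 higher genes (64.5%) and in 113 of the 354 lower genes (31.9%). At least 4-fold was reached by 64 and 24 genes. The higher list held 19 genes changed at least 8-fold, and the lower list held 4. Of the lower genes 88 were changed by less than 1.5-fold, and of the higher genes 22. The 3 libraries at 10 µg/kg and the 3 at 3 µg/kg did not overlap for 303 of the higher and 345 of the lower genes. Over all genes tested, 11.5% lay wholly higher and 13.3% wholly lower at 10 µg/kg.

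**Figure D1:**
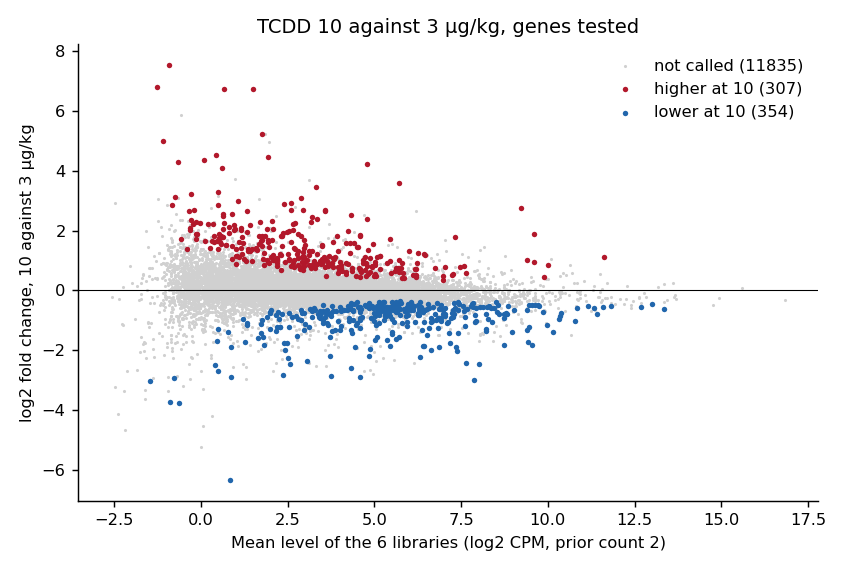
Each point is a gene tested. The horizontal axis is its mean level over the 6 libraries (log2 CPM, a count scaled to a common library size, with a prior count of 2) and the vertical axis its fitted log2 fold change at 10 against 3 µg/kg. The 307 higher genes lie mostly at low levels with large changes, and the 354 lower genes extend to higher levels with smaller changes.

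The groups differed in how abundant their genes were. Levels are given in CPM, counts scaled to a common library size with a correction for composition. They are not divided by gene length, so levels here also carry length. Higher genes had a median of 4.74 CPM at 3 µg/kg and 13.0 CPM at 10 µg/kg. Lower genes had a median of 58.6 CPM at 3 µg/kg and 33.5 CPM at 10 µg/kg. In the class of 1 to 10 CPM, 149 of 4987 genes were higher (2.99%) and 56 were lower (1.12%). In the class of 100 to 1000 CPM the balance was the other way, with 16 of 852 higher (1.88%) and 95 lower (11.2%). Among the 100 genes at 1000 CPM and over, 15 were lower. The larger change of the higher genes was not seen in every class. At 100 to 1000 CPM the median log2 fold changes were alike in size, 0.784 for higher and -0.793 for lower genes. Below 1 CPM they were 2.29 (16 higher genes) and -3.37 (4 lower genes). At 10 to 100 CPM they were 0.919 and -0.684. The higher genes also changed more at 1 to 10 CPM and at 1000 CPM and over. Precision also varied with level: the median SE over all genes was 0.300 at 1 to 10 CPM and 0.173 at 100 to 1000 CPM.

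The 307 higher genes together took 0.924%, 0.885% and 0.910% of gene counts in the 3 libraries at 3 µg/kg. At 10 µg/kg they took 2.02%, 2.24% and 2.51%. The means were 0.906% ± 0.0199 and 2.26% ± 0.245 (SD, n = 3). All 3 libraries of the top dose thus lay far above those of the lower dose. A single gene supplied 22.8% of the 1.35 points gained, and the 5 largest contributors 54.2%. The 354 lower genes took 10.1%, 10.8% and 10.5% at 3 µg/kg, and 7.59%, 7.07% and 6.75% at 10 µg/kg. The means were 10.5% ± 0.345 and 7.14% ± 0.422 (SD, n = 3). That loss was spread more widely, with 26.1% of the 3.36 points lost carried by the 5 largest contributors. As the genes were chosen by this same contrast, these shares are descriptions without a test.

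The libraries of the lower doses, which are outside the contrast, show where these genes stood below the step. They did enter the estimate of spread, so genes that varied little over the lower doses could be called more easily. For the higher genes the median difference from the vehicle mean was 0.029 at the lowest dose, 0.01 µg/kg, and stayed at 0.0901 and 0.0083 at the next higher ones (log2 CPM). It was 0.14 for 0.3 µg/kg and 0.23 for 1 µg/kg. At 1 µg/kg, 215 of the 307 genes (70.0%) were within 1.5-fold of the vehicle mean and 85 (27.7%) lay at least 1.5-fold above it. At 3 and 10 µg/kg, the doses that chose the genes, the medians were 0.18 and 1.41. The typical gene of this group thus lay near its vehicle level up to 1 µg/kg. Choosing genes as higher at 10 than at 3 µg/kg favours low values at 3 µg/kg, where 27 genes lay at least 1.5-fold below vehicle, against 7 at 1 µg/kg.

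The lower genes also lay mostly near their vehicle level over the lower doses. Their median difference from vehicle was 0.031, 0.015, 0.0033 and -0.037 from 0.01 to 0.3 µg/kg, and -0.15 at 1 µg/kg. At 1 µg/kg 308 of the 354 (87.0%) were within 1.5-fold of vehicle and 36 (10.2%) at least 1.5-fold below it. At 3 and 10 µg/kg the medians were -0.092 and -0.84. Their summed share of gene counts was 12.1% ± 0.625 in vehicle, against 10.7% ± 0.756 for 1 µg/kg (SD, n = 3). The percentage within 1.5-fold is not compared with that of the higher genes, which were less abundant and less precisely measured. No such percentage was taken over all genes tested at 1 µg/kg.

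**Figure D2:**
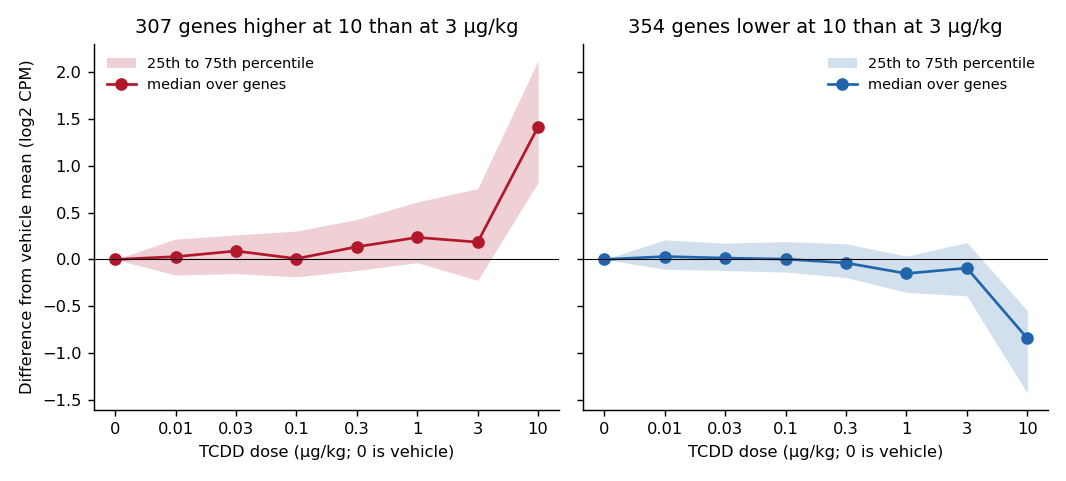
Median over genes (line) and interquartile range (band) of the difference in mean log2 CPM from vehicle, by TCDD dose in µg/kg, for the 307 higher genes (left) and the 354 lower genes (right). Both medians stay within 0.23 of vehicle up to 1 µg/kg and reach 1.41 and -0.84 at 10 µg/kg. The genes were chosen by the contrast of the 3 and 10 µg/kg libraries, with the spread estimated over all 24 libraries.

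Most of these genes left the range of every lower-dose library. For 224 of the higher genes (73.0%), all 3 libraries at 10 µg/kg lay above all 18 libraries of vehicle to 1 µg/kg. For 244 of the lower genes (68.9%) they lay below all 18. Over all genes tested, 6.74% lay above and 6.64% below. The 10 µg/kg libraries also chose the genes, and the 18 entered the estimate of spread, so nothing is read from the excess.

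Set against the vehicle mean at a ratio of 1.5, the called genes fell into a few patterns. Of the higher genes, 159 (51.8%) were within that ratio at 3 µg/kg and above it at 10 µg/kg. Another 95 (30.9%) were already above at 3 µg/kg and higher again at 10 µg/kg. A further 26 were within the ratio at both doses. The remaining 27 lay below vehicle at 3 µg/kg, of which 15 were above it at 10 µg/kg and 12 were within the ratio of it. Of the lower genes, 192 (54.2%) were within the ratio at 3 µg/kg and below it at 10 µg/kg, and 58 (16.4%) were below at both. Another 86 (24.3%) stayed within the ratio at both doses, and 13 came down from above vehicle to within the ratio. Over all genes tested, 7.95% were within the ratio at 3 and above at 10 µg/kg, and 7.17% within at 3 and below at 10 µg/kg. Another 10.3% were above at both doses, 5.79% below at both and 61.4% within the ratio at both. The 3 µg/kg libraries enter both the choice of genes and these classes.

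For 7 of the higher genes no 3 µg/kg library held more than 3 counts. Their means at 10 µg/kg ran from 0.986 to 17.4 CPM, with a median of 1.19 CPM. Such genes could pass the low-count filter only through other groups in which they were higher. Just 27 of the genes tested (0.216%) were at most 3 counts in each 3 µg/kg library, so the filter limits how many could be called.

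ENSRNOG00000008575 showed the largest fitted rise of the IDs that qualified for printing. It held 2, 2 and 2 counts at 3 µg/kg, and 12, 276 and 568 counts at 10 µg/kg. In CPM these were 0.135, 0.175 and 0.160 against 0.789, 16.0 and 35.3. The groups did not overlap, but the top-dose library with the lowest level stood far below the other two. Over the 18 libraries of vehicle to 1 µg/kg it held 0 to 5 counts, so only the 10 µg/kg libraries could carry it past the low-count filter. The log2 fold change was 6.73 (SE 0.997, edgeR adjusted p = 0.000770). The pooled counts per gene count were 130 times higher at 10 µg/kg, with an exact 95% interval of 59.5 to 355 that covers counting error only. Single top-dose libraries moved its log2 fold change, to 5.68 without replicate 3.

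ENSRNOG00000028900 followed with counts of 3, 8 and 3 at 3 µg/kg and 173, 63 and 1666 at 10 µg/kg. The levels were 0.203, 0.699 and 0.240 CPM, then 11.4, 3.65 and 104 CPM. Replicate 3 of the top dose thus stood apart, though all 3 libraries lay above every library at 3 µg/kg. No library of vehicle to 1 µg/kg held more than 2 counts, so only the 10 µg/kg libraries could carry it past the low-count filter. The log2 fold change was 6.72 (SE 1.06, edgeR adjusted p = 0.00162). It was 4.31 without 10 µg/kg replicate 3 (edgeR adjusted p = 0.00206). In a fit of the 2 groups alone the call was lost (edgeR adjusted p = 0.0535).

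ENSRNOG00000027024 showed the largest fall of the qualifying IDs, from counts of 172, 215 and 87 at 3 µg/kg to 4, 3 and 0 at 10 µg/kg. In CPM it went from 12.5 ± 5.95 to 0.146 ± 0.134 (SD, n = 3). The log2 fold change was -6.34 (SE 1.73, edgeR adjusted p = 0.0359). Low counts were also seen at lower doses, since the 18 libraries of vehicle to 1 µg/kg ranged from 6 to 621 counts. The call was lost without 3 µg/kg replicates 1 and 2 (edgeR adjusted p = 0.0632 and 0.0929). For the 10 µg/kg libraries the edgeR adjusted p was 0.0707 without replicate 1, 0.127 without replicate 2 and 0.149 without replicate 3. The fall itself remained about as large in these 5 fits, at log2 fold changes of -6.97 to -5.79.

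ENSRNOG00000004692 was an abundant ID, at 828, 1626 and 473 CPM at 3 µg/kg and 297, 57.3 and 15.1 CPM at 10 µg/kg. Each top-dose library lay below all 18 libraries of vehicle to 1 µg/kg, which held 570.2 to 5075 CPM with a median of 1651 CPM. The log2 fold change was -2.99 (SE 0.839, edgeR adjusted p = 0.0408). The spread was wide in both groups, with means of 976 ± 591 and 123 ± 152 CPM (SD, n = 3). The call was lost without replicate 1 or 2 at 3 µg/kg (edgeR adjusted p = 0.0674 and 0.141). It was also lost without replicate 2 or 3 at 10 µg/kg (edgeR adjusted p = 0.170 and 0.142). Without 10 µg/kg replicate 1, the highest of that dose, the log2 fold change was -4.75 (edgeR adjusted p = 0.00439), and over the 6 fits that left out a library it ran from -4.75 to -2.40. A fit of the 2 groups alone lost it as well (edgeR adjusted p = 0.138).

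**Figure D3:**
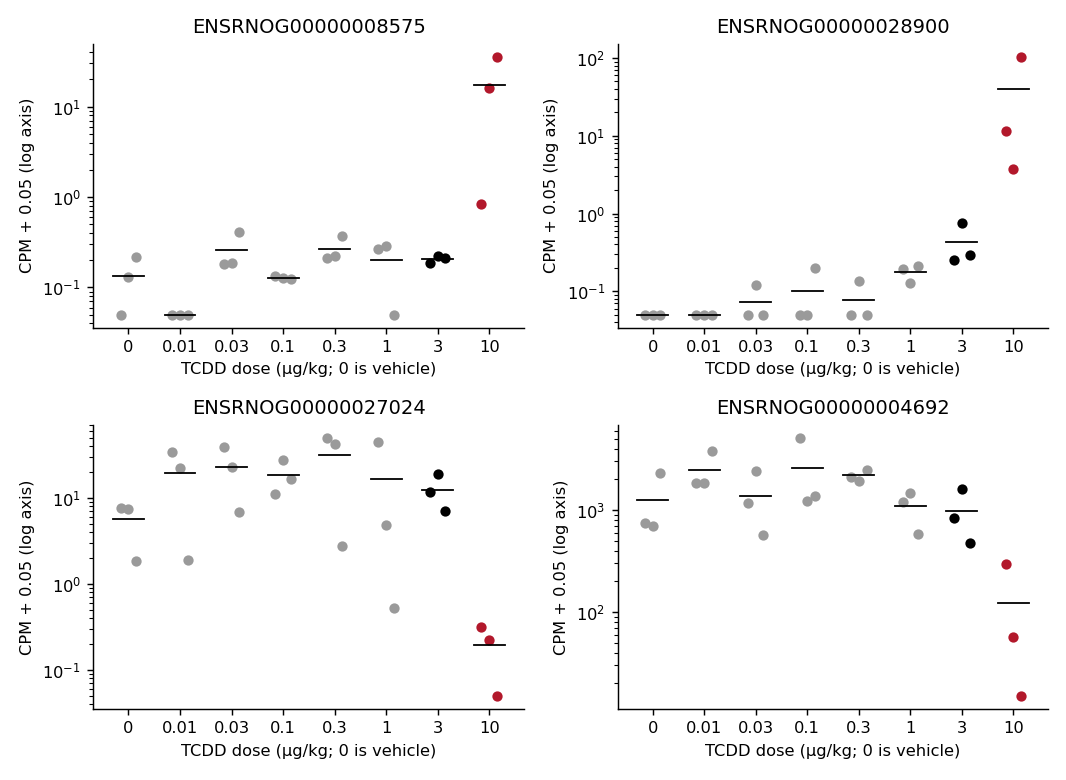
Level of the 4 printed IDs in all 24 libraries by TCDD dose in µg/kg, on a log axis of CPM with 0.05 added. Points are libraries (red 10 µg/kg, black 3 µg/kg, grey the rest) and bars are group means. The 3 red points lie beyond the black ones in each panel and differ widely among themselves.

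The number of calls depended on single libraries. Leaving out a 3 µg/kg library gave 414 (replicate 1), 340 (replicate 2) or 430 (replicate 3). Leaving out a top-dose library gave 753 (replicate 1), 239 (replicate 2) or 202 (replicate 3). The balance between directions turned in several of these fits. It was 177 higher and 163 lower genes without 3 µg/kg replicate 2. For the top dose, 131 were higher and 108 lower when replicate 2 was left out, and 121 higher and 81 lower when replicate 3 was. Replicate 1 of the top dose was the least changed of its 3 libraries for 242 of the lower genes and 160 of the higher genes. With just these 2 groups in the fit 279 genes passed (150 higher and 129 lower), of which 230 were among the 661. In each of the 6 fits that left out a library, all 661 genes kept the direction of their fold change. The groups did not overlap for 303 of the higher and 345 of the lower genes. Leaving out a library could hardly turn the direction of those, so nothing is read from this. Of the 661, 147 (22.2%) were called in all 6 fits that left out a library, 83 higher and 64 lower. Those 83 had a median log2 fold change of 1.82 and those 64 a median of -1.10. ENSRNOG00000008575 and ENSRNOG00000028900 were among the 83, while neither printed ID that fell was among the 64.

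**Figure D4:**
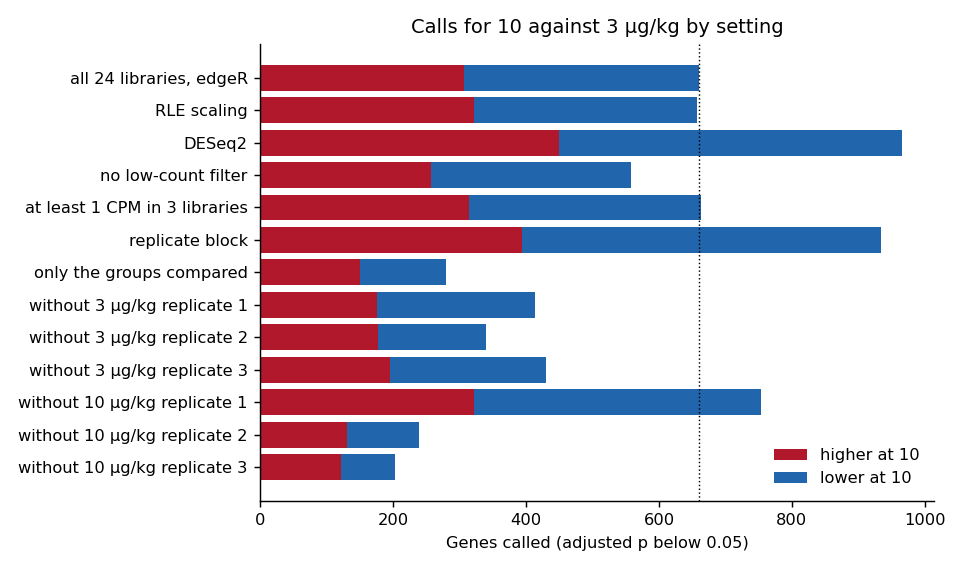
Number of genes called at 10 against 3 µg/kg (bar length) by analysis setting, split into higher (red) and lower (blue). The dotted line marks the 661 calls with all 24 libraries, and the shortest bars, at 239 and 202, are those without 10 µg/kg replicate 2 or 3.

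The next lower step, from 1 to 3 µg/kg, is a similar ratio of doses and was tested in the same fit. It gave 18 higher and 21 lower genes (0.144% and 0.168%), together 0.312% of those tested, where the top step gave 5.29%. The steps were measured with like precision, at a median SE of 0.236 and 0.234. The interquartile range of log2 fold changes over all genes was 0.389 for the lower step and 0.519 for the top step. Both steps share the 3 µg/kg libraries. Gene by gene, the difference between the steps passed the threshold for 0 genes, or 0% (edgeR; 1507, or 12.1%, at an unadjusted p below 0.05; smallest adjusted p = 0.0674), against 63 by DESeq2. No gene can therefore be called particular to the top step by the edgeR test, and the 4 printed IDs had adjusted p = 0.331 to 0.487 in it. Leaving out a library gave 0 to 32 such genes, the 32 without 10 µg/kg replicate 1 and 5 without 1 µg/kg replicate 1. The 39 calls of the lower step dropped to 8 when replicate 2 at 1 µg/kg was left out and to 12 for its replicate 3. For the 3 µg/kg libraries the numbers were 18 (replicate 1), 13 (replicate 2) and 24 (replicate 3).

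More gene IDs were detected at the top dose. At least 1 count was found for 14862, 14330 and 14774 IDs at 3 µg/kg and for 15289, 15373 and 15147 at 10 µg/kg. Brought to the depth of the shallowest library of the series, 11816273 counts, the expected numbers were 14540 ± 237 and 15050 ± 100 (SD, n = 3). The top-dose libraries lay above all of the other 18 as well, whose highest value was 14745. An exact two-sided permutation test gave p = 0.10, its lower limit with 3 libraries a group, and 0.225 after adjustment over the 9 library measures compared. The share of counts in the 10 largest IDs overlapped between the groups, at 31.2% ± 0.973 and 30.5% ± 0.880 (SD, n = 3; exact permutation p = 0.60, adjusted 0.60).

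Alignments that were not unique enter no gene count and also differed. They were 21.0%, 22.8% and 22.5% of a table's total at 3 µg/kg and 35.0%, 31.7% and 29.3% at 10 µg/kg. The difference was 9.92 points (exact two-sided permutation p = 0.10, adjusted 0.225). Alignments outside annotated genes averaged 14.28% ± 0.597 of a table's total at 3 µg/kg and 12.46% ± 0.466 at 10 µg/kg (SD, n = 3). In that unit the groups did not overlap (exact two-sided permutation p = 0.10, adjusted 0.225). Per 100 gene counts, which leaves the not-unique alignments out of the denominator, the groups overlapped. The values were 23.0, 21.4 and 22.9 for 3 µg/kg and 23.7, 21.3 and 22.4 for 10 µg/kg. The part of the not-unique alignments in the gene calls and in the number of IDs detected was not tested.

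**Figure D5:**
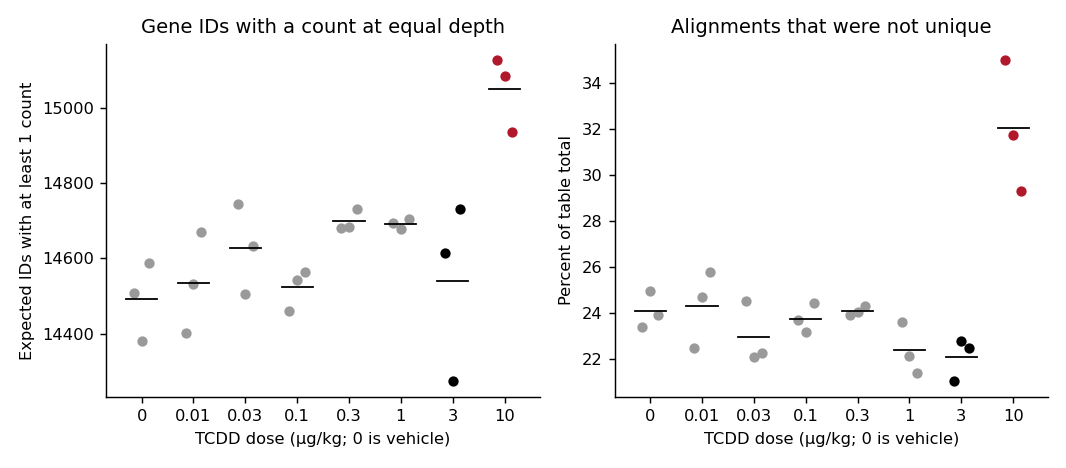
Expected number of gene IDs with at least 1 count at equal depth (left) and alignments that were not unique in percent of the table total (right), by TCDD dose in µg/kg. Points are libraries and bars are group means. The 3 libraries at 10 µg/kg (red) lie above all others in both panels.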

How the data were processed

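The deposited files hold whole-number counts per Ensembl gene ID, 1 library each, which the authors did not normalise. The submitters' processing notes list HTSeq 0.6.1, TopHat 1.4.1, DESeq, SAMtools 0.1.2, cutadapt 1.4.1 and FastQC 0.11.2. Settings, genome build, annotation and strand handling are not given in the sources used here, so overlapping, antisense and near-identical genes are uncertain. The 5 summary rows per file (35.8% to 47.5% of its total) were left out of library sizes and tests.

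With edgeR 4.0.16 (R 4.3.3), filterByExpr chose the genes, TMM scaled the libraries and a model was fitted with a mean per group over all 24 libraries (glmQLFit, 16 residual degrees of freedom). Contrasts were tested with glmQLFTest. The SE is the log2 fold change divided by the square root of F. CPM uses TMM-scaled sizes, and log2 CPM a prior count of 2. Fits were tested on simulated data. IDs were named by the largest called changes whose groups did not overlap and whose higher group averaged 5 CPM or more. With no names paired, 2 were printed each way, and other IDs were left out even where counts are small. This comparison, its rules and its alternatives (RLE, DESeq2 1.42.0, filters, replicate block, only the groups compared, each library left out) were chosen with earlier results of these data known.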

Additional observations from a re-analysis of the deposited data

Results flagged for a closer look

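Alignments that were not unique, which no comparison of genes used, averaged 32.0% ± 2.85 of a table's total at 10 µg/kg and 22.1% ± 0.927 at 3 µg/kg (SD, n = 3). In the vehicle libraries they averaged 24.1% ± 0.797. The lowest library at 10 µg/kg, at 29.3%, was above every library of the other groups, and this signal above the controls in data outside the gene counts is why it is listed. With groups of 3, single libraries standing apart were not tested for.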

How the results depend on the processing

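For 10 against 3 µg/kg, the count of 661 stayed within 1.5 times under RLE scaling (657), DESeq2 (966), both other filters (558 and 664) and the replicate block (934), but was 279 in a fit of only the groups compared. Leaving out a library gave 202 to 753. No alternative gave an opposite call for any of the 661, but all reuse libraries that chose these genes. For 3 against 1 µg/kg, the count of 39 was 100 by DESeq2, 12 in a fit of the groups compared, and 8 to 47 with a library left out. For the difference of steps, the count of 0 was 63 by DESeq2, 9 with no low-count filter, 10 with the replicate block, and 0 to 32 with a library left out. The smaller fits held fewer samples, and the cause of these differences in counts was not tested. Same-numbered libraries of 10 and 3 µg/kg did not deviate together (r = -0.064, 0.0090 and 0.042 across genes), so the numbers were not taken as pairs. For 3 and 1 µg/kg the values were -0.245, -0.231 and 0.079, and other pairs of groups were not checked. Differently numbered libraries of 3 and 1 µg/kg ran from r = -0.169 to 0.289. The highest was 3 µg/kg replicate 2 with 1 µg/kg replicate 1. Replicate 1 at 10 µg/kg was closest to replicate 2 at 3 µg/kg (r = 0.071). The replicate block, taken over all groups, still gave more calls than the main fit (934 against 661), and why was not tested. ENSRNOG00000008575 kept its call in all 11 alternatives that tested it, and the filter of 1 CPM in 3 libraries dropped it. In the fit of only the groups compared it was barely under the threshold (edgeR adjusted p = 0.0499). The log2 fold change ran from 4.31 to 7.42 for ENSRNOG00000028900, which lost its call in 1 of 12. ENSRNOG00000027024 and ENSRNOG00000004692 each lost theirs in 5 of 12. The not-unique share differed by 8.43 to 11.3 points with a library left out, and by 23.2 per 100 gene counts. Depth limited precision most under 1 CPM, where the median SE of a log2 fold change was 0.552.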

Other observations

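By the SD of log2 CPM, libraries at 3 µg/kg varied more among themselves than those at 10 µg/kg. By chi-square per degree of freedom the groups overlapped, at 22.0 to 45.6 for 3 µg/kg and 24.7 to 36.2 for 10 µg/kg. The median SD of log2 CPM over all genes tested was 0.272 at 3 µg/kg and 0.205 at 10 µg/kg (n = 3 each), and the SD was larger at 10 µg/kg for 38.4% of the 12496 genes. Among the called genes the groups were alike, with medians of 0.284 and 0.275 for the higher genes and 0.202 and 0.196 for the lower genes. The called genes were chosen partly by their spread. At equal depth, 3 µg/kg replicate 2 held the fewest IDs of all 24 libraries, 14274.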
